A study of Mus musculus with 16 samples.

Results

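The 36 genes described here encode the machinery that copies and divides chromosomes, and they were taken from a list of symbols that was drawn up with earlier results of these data known: 20 act at the entry into and during DNA replication (S phase) and 16 act from S phase to mitosis. All 36 symbols matched 1 Ensembl identifier each among the 55401 in the data. The 29 genes over 1 CPM (counts scaled by library total) in at least 1 library were tested, and *Cdc6*, *Dtl*, *Ccnb1*, *Cdk1*, *Bub1*, *Aurkb* and *Cdca8* were not. RNA of the whole hypothalamus came from 16 male C57BL/6 mice of 3 months, either wild type (WT) or homozygous for a deletion of the acid-sensing ion channel ASIC1a (ASIC1a-/-), both bred from heterozygous parents. Each genotype had 4 mice killed at Zeitgeber time 1 (ZT1, 1 h after lights on) and 4 at ZT13 (early in the dark phase), kept on a light-dark cycle without further treatment. The channel was deleted from the germ line, so all tissues of the ASIC1a-/- mice lacked it, and each time was measured in other mice.

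A dividing cell first licenses replication origins by loading the MCM helicase, which CDC45 and the GINS complex activate at the start of S phase. The E2F transcription factors drive the genes of this step, while the DREAM and MuvB complexes act on mitotic genes through a promoter element called the cell cycle genes homology region (CHR). In the adult hypothalamus most cells are neurons that no longer divide, and dividing cells are few: precursors of oligodendrocytes, tanycytes, microglia and endothelial cells. In whole tissue, fewer cells of a type and less RNA per cell cannot be told apart.

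The promoters of these genes held short matches to the sites searched for, and the windows below are examples from genes named in the results. CHR windows are shown for *Mcm2* and *Cdc45*, which are replication genes, so the match shown does not give the class. Several genes held further matches, among them *Cdc45* and *Bub1b* for the CHR. RefSeq promoters (GRCm38.p6, 250 bases before to 50 bases after the start site) were matched for 30 of the 36 genes; *Ccna2*, *Mcm4*, *Aurkb*, *Ccne2*, *Tpx2* and *Gins2* had no entry. The E2F site was searched as TTTGGCGC, TTTGCCGC, TTTCGCGC or TTTCCCGC, the CHR as TTTGAA or TTCGAA, and the NF-Y box as CCAAT, on both strands. Capitals mark the match in each 30-base window, written 5′ to 3′ along the gene.
*Mcm6* E2F site, chr1:128359734-128359763, minus strand: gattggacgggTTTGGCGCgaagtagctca
*Mcm5* E2F site, chr8:75109345-75109374, plus strand: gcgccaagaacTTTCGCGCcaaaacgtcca
*Cdk2* E2F site, chr10:128705173-128705202, minus strand: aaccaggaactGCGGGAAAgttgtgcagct
*Cdc6* E2F site, chr11:98908002-98908031, plus strand: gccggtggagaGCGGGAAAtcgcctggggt
*Mcm2* CHR, chr6:88898833-88898862, minus strand: agggctcagcctTTTGAAagctgtgggcgg
*Cdc45* CHR, chr16:18812193-18812222, minus strand: aggcctgaggTTTGAAtattacttaaagta
*Mki67* CHR, chr7:135716460-135716489, minus strand: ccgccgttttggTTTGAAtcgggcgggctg
*Cdk1* CHR, chr10:69352910-69352939, minus strand: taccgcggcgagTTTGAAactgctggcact
*Bub1b* NF-Y box, chr2:118598086-118598115, plus strand: gctaggacaaccATTGGtccttgcacctca

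An E2F match was present in 10 of the 30 genes, 9 of the 17 replication genes and 1 of the 13 S to M genes (*Cdk1*), against 2.6% of the 27025 genes with a promoter in the table. A CHR match was present in 14 of the 30, 3 of the 17 replication genes (*Cdc45*, *Mcm2* and *Mcm7*) and 11 of the 13 others, against 21.7% of all genes. The NF-Y box was present in 25 of the 30, against 41.1% of all genes. Of the 3 genes that differed with time (below), *Cdk2* held an E2F match, *Cdc45* and *Mcm2* held a CHR match, and all 3 held an NF-Y box. Among the 11657 tested genes with a promoter, 4.4% held an E2F match, 15.9% a CHR match and 42.6% an NF-Y box. The CHR share of the replication genes, 17.6%, was near that of all genes. These matches are letters in a window and were not tested as binding sites.

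**Figure D1:**
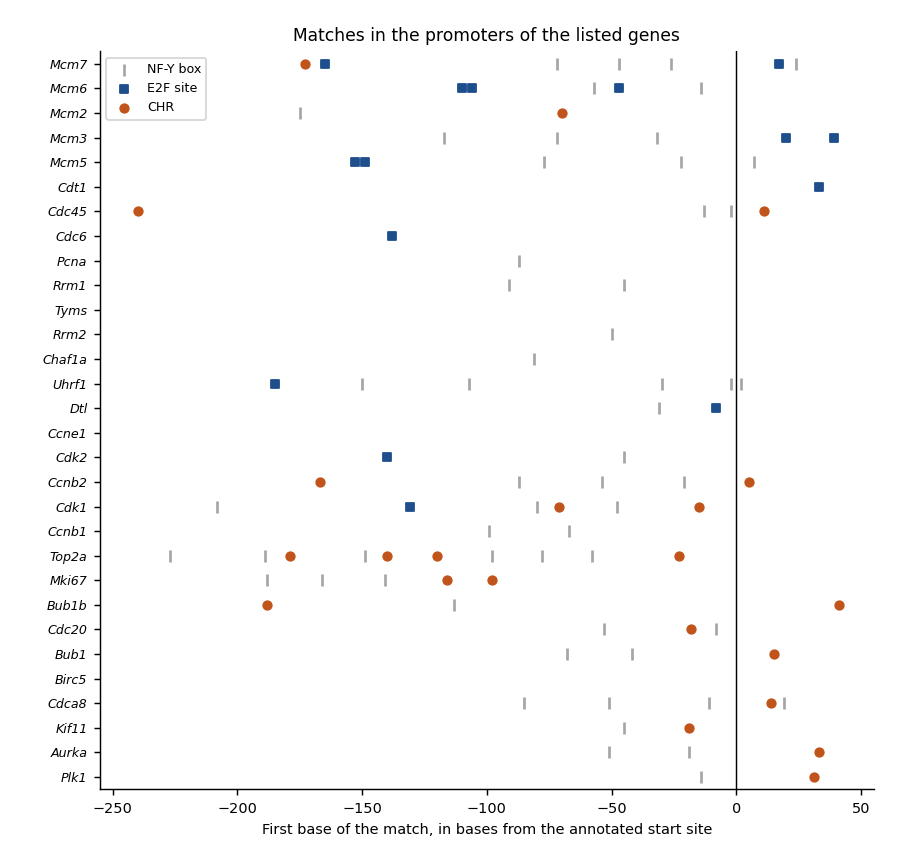
Position of each match in the promoters of the 30 listed genes with an entry, as the distance in bases of its first base from the annotated start site; squares are E2F sites, circles CHR and grey bars NF-Y boxes. E2F matches lie in 9 replication genes and *Cdk1*, and CHR matches in 11 of the 13 S to M genes.

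The replication genes were expressed above the mitotic genes. On the TPM scale (length-corrected transcript abundance), the median over the 20 replication genes was 2.36 and 17 exceeded 1 TPM, whereas the median over the 16 others was 0.799 and 5 exceeded 1 TPM. *Pcna*, the sliding clamp that also serves DNA repair, was the highest with a mean of 46.0 TPM. It had 47.5, 48.2, 45.6 and 45.2 TPM in WT and 51.3, 46.4, 46.4 and 46.0 in ASIC1a-/- mice at ZT1, and 41.4, 45.1, 47.0 and 40.0 in WT and 47.6, 48.7, 42.8 and 47.1 in ASIC1a-/- mice at ZT13, so that its groups overlapped. *Rrm1*, a ribonucleotide reductase subunit that supplies deoxynucleotides, followed with 14.8 TPM, and its partner *Rrm2* had 1.48 TPM.

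The 6 subunits of the MCM helicase were unequal in level, from 2.12 TPM for *Mcm5* to 13.7 TPM for *Mcm7*. *Mcm7* had 13.3, 14.2, 14.1 and 12.8 TPM in WT and 13.0, 13.2, 14.97 and 15.7 in ASIC1a-/- mice at ZT1, and 11.4, 12.7, 12.01 and 14.8 in WT and 13.5, 15.8, 14.9 and 12.8 in ASIC1a-/- mice at ZT13, and every group overlapped every other. In the licensing class, *Cdt1*, the MCM loading factor, was highest with a mean of 2.46 TPM, and *Cdc6*, its partner, had 0.305 TPM. *Cdt1* had 2.58, 3.48, 2.26 and 1.90 TPM in WT and 2.71, 2.40, 1.55 and 2.18 in ASIC1a-/- mice at ZT1, and 2.72, 2.70, 2.85 and 2.72 in WT and 2.76, 1.97, 2.80 and 1.71 in ASIC1a-/- mice at ZT13. *Chaf1a*, a subunit of the chromatin assembly factor that follows the fork, had a mean of 1.19 TPM, with 1.26, 1.13, 1.27 and 1.27 TPM in WT and 1.2, 1.24, 1.06 and 0.91 in ASIC1a-/- mice at ZT1, and 1.37, 1.39, 1.30 and 1.12 in WT and 1.21, 1.13, 1.11 and 1.01 in ASIC1a-/- mice at ZT13. *Ccne1*, the cyclin of the G1 to S transition, had a mean of 10.8 TPM, with 12.9, 8.85, 11.5 and 10.3 TPM in WT and 9.61, 11.1, 11.2 and 11.7 in ASIC1a-/- mice at ZT1, and 9.54, 10.6, 10.1 and 11.1 in WT and 9.80, 11.3, 9.33 and 13.3 in ASIC1a-/- mice at ZT13. *Cdk1*, the kinase of mitosis, had 0.681 TPM.

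Among the mitotic genes, *Bub1b*, a spindle checkpoint kinase, had the highest mean with 2.88 TPM (1.25 to 4.93). *Birc5*, a member of the chromosomal passenger complex, had a mean of 2.57 TPM, whereas its partner *Aurkb* had 0.299 TPM and was at 0 in 2 libraries. *Birc5* had 2.51, 2.00, 2.95 and 3.35 TPM in WT and 2.21, 2.03, 2.97 and 2.31 in ASIC1a-/- mice at ZT1, and 3.06, 1.89, 2.31 and 3.27 in WT and 1.89, 3.11, 3.03 and 2.17 in ASIC1a-/- mice at ZT13. *Tpx2*, which targets Aurora A to the spindle, had a mean of 1.31 TPM, with 2.02, 1.19, 1.36 and 2.89 TPM in WT and 0.81, 2.22, 1.15 and 1.08 in ASIC1a-/- mice at ZT1, and 1.07, 1.02, 0.87 and 0.80 in WT and 1.27, 1.33, 0.94 and 0.88 in ASIC1a-/- mice at ZT13. The highest value was that of WT ZT1 replicate 4, and on this scale WT at ZT1 and WT at ZT13 did not overlap, whereas on the CPM scale used for the test they did. The proliferation marker *Mki67* had 0.227 TPM and *Top2a*, the topoisomerase that untangles chromosomes, 0.552 TPM.

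**Figure D2:**
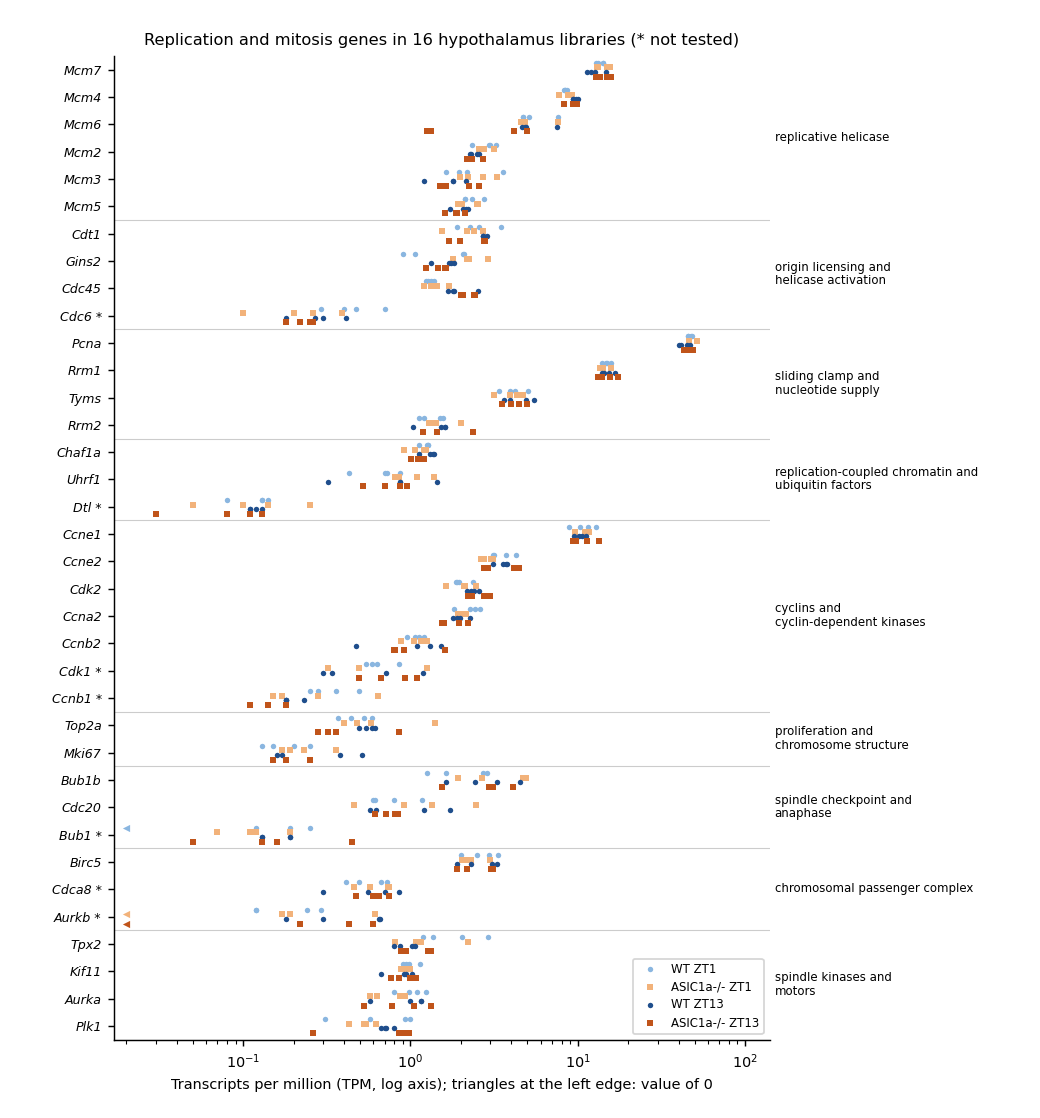
TPM (log axis) of the 36 genes in each of the 16 libraries, by class; circles are WT and squares ASIC1a-/-, light colours ZT1 and dark colours ZT13. *Pcna* has a mean of 46.0 TPM, while most mitotic genes lie near or below 1 TPM, and stars mark the 7 genes that were not tested.

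The 7 genes under the filter rested on few reads. Their expected counts were 8 to 29 for *Cdc6*, 3 to 19 for *Dtl*, 2 to 13 for *Ccnb1*, 2 to 18 for *Cdk1*, 0 to 8 for *Bub1*, 0 to 9 for *Aurkb* and 8 to 24 for *Cdca8*. The tested gene nearest the threshold was *Aurka*, with at most 1.02 CPM, and the untested gene nearest it was *Cdc6*, with at most 0.812 CPM. A further 8 genes passed with a mean under 1 CPM, *Mki67* and *Top2a* among them. The exons of *Gins2* shared 67.3% of their bases with *Gse1* on the opposite strand, those of *Chaf1a* 52.5% with *Ubxn6*, those of *Ccne2* 17.4% with *Ints8* and those of *Ccna2* 12.5% with *Exosc9*. Whether reads were assigned by strand is not given in the sources used here, so these values are uncertain.

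The total of expected counts was 34888522 to 42326259 per library. *Asic1*, which encodes the deleted channel, was lower in every ASIC1a-/- library (64.9 to 71.9 CPM) than in every WT library (97.1 to 106 CPM), although its mean TPM, which depends on the transcript length that RSEM assigns, was higher in ASIC1a-/- mice (76.9 and 82.7 at ZT1 and ZT13, against 65.6 and 66.0 in WT). The 8 hypothalamic markers summed to 1030 to 1460 CPM over the libraries. The 4 meningeal markers reached 90.3 CPM in ASIC1a-/- ZT1 replicate 4 and 51.1 in ASIC1a-/- ZT13 replicate 2, and were 12.8 to 23.9 in the WT libraries. The 3 thalamic markers reached 66.5 CPM in WT ZT1 replicate 4 and were at most 43.2 elsewhere. The counts of genes called and the calls of *Cdc45*, *Cdk2*, *Mcm2* and *Racgap1* are also given without these 3 libraries, and other values are not. The 4 markers of the anterior pituitary reached 40.1 CPM in WT ZT13 replicate 1. They were 0.506 to 3.49 CPM in WT at ZT1, below WT at ZT13 (5.81 to 40.1) and ASIC1a-/- mice at ZT1 (4.62 to 14.1) without overlap, and 0.636 to 9.27 in ASIC1a-/- mice at ZT13; their part in the results was not tested.

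The first question was whether the genes differed between genotypes. None of the 29 passed edgeR's quasi-likelihood test at an adjusted p under 0.05 at ZT1 (0.0127% of all 15808 tested genes passed), at ZT13 (0.101%, with 0.0822% higher and 0.0190% lower) or averaged over both times (0.0633%, with 0.0506% higher and 0.0127% lower), and none in the interaction of genotype and time (0.0190%). At an unadjusted p under 0.05 the counts were 0, 1, 3 and 0 of 29, where 7.00%, 3.74%, 6.80% and 3.91% of all genes passed. DESeq2 and limma-voom also called none of the 29. The median log2 fold change over the 29 genes was 0.04 at ZT1 and -0.02 at ZT13, beside 1.2e-04 and 4.3e-05 over all genes.

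*Mki67* was low in every library. It had 0.78, 0.67, 0.67 and 1.03 CPM in the WT libraries at ZT1 and 0.98, 0.90, 0.89 and 1.2 in those of ASIC1a-/- mice. At ZT13 it had 0.71, 0.91, 0.82 and 0.78 CPM in WT and 0.76, 0.90, 0.78 and 0.89 in ASIC1a-/- mice. The groups overlapped at both times, and the highest values at ZT1 were in WT replicate 4 and ASIC1a-/- replicate 4, the libraries high in thalamic and meningeal markers; the part of this in the levels was not tested. The log2 fold change of *Mki67* between genotypes was 0.33 at ZT1 (95% interval -0.06 to 0.71) and 0.04 at ZT13 (-0.34 to 0.43).

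*Top2a* had 0.84, 0.98, 0.96 and 0.83 CPM in WT and 0.90, 1.04, 1.31 and 0.98 in ASIC1a-/- mice at ZT1. It had 0.77, 0.68, 0.79 and 1.36 CPM in WT and 0.74, 0.93, 0.71 and 1.00 in ASIC1a-/- mice at ZT13. The highest library was thus WT ZT13 replicate 4, and the groups overlapped. The interval of the genotype difference at ZT13 ran from -0.57 to 0.36 on the log2 scale. For *Pcna*, with 978 to 1229 counts, the interval was narrower, -0.05 to 0.14.

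*Mcm6*, a helicase subunit, had the largest genotype difference of the 29 genes at ZT13. It had 11.3, 7.08, 6.86 and 6.90 CPM in WT and 6.21, 6.47, 1.67 and 1.91 in ASIC1a-/- mice at ZT13. At ZT1 it had 11.4, 7.54, 6.64 and 6.96 CPM in WT and 11.3, 6.86, 6.79 and 6.48 in ASIC1a-/- mice. The groups did not overlap at ZT13, but the low mean came from replicates 3 and 4, and replicate 1 stood above the other libraries in 3 of the 4 groups. The log2 fold change at ZT13 was -0.99 ± 0.35 (SE), with an unadjusted p of 0.0104 and an adjusted p of 1.00 by edgeR, and groups did not overlap for 1 of the 29 genes, against 2.58% of all genes. *Mcm6* lies at chr1:128331590-128359664 (GRCm38), and the neighbouring genes held 70.5 to 79.2 CPM (*Ubxn4*) and 53.3 to 64.6 CPM (*Dars*) without such steps.

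*Ccne2*, the other cyclin of the G1 to S transition, had 4.94, 4.30, 4.72 and 4.25 CPM in WT and 3.86, 3.89, 4.12 and 4.05 in ASIC1a-/- mice at ZT1. All 4 ASIC1a-/- libraries lay below all 4 WT libraries at ZT1, whereas the groups overlapped at ZT13. Averaged over both times, *Ccne2* differed by -0.18 ± 0.07 (unadjusted p = 0.0244, adjusted p = 0.721 by edgeR). At ZT1 the groups did not overlap, in either direction, for 1 of the 29 genes and for 2.92% of all genes. *Aurka*, the kinase of spindle poles, differed by -0.36 ± 0.17 averaged over both times (unadjusted p = 0.0498, adjusted p = 0.731 by edgeR), from 0.47 to 1.02 CPM in single libraries. It passed the filter on low counts only through WT libraries at ZT13, and was at most 0.839 CPM in ASIC1a-/- mice. Its place among the 3 genes under an unadjusted p of 0.05 is therefore no support for a genotype difference.

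**Figure D3:**
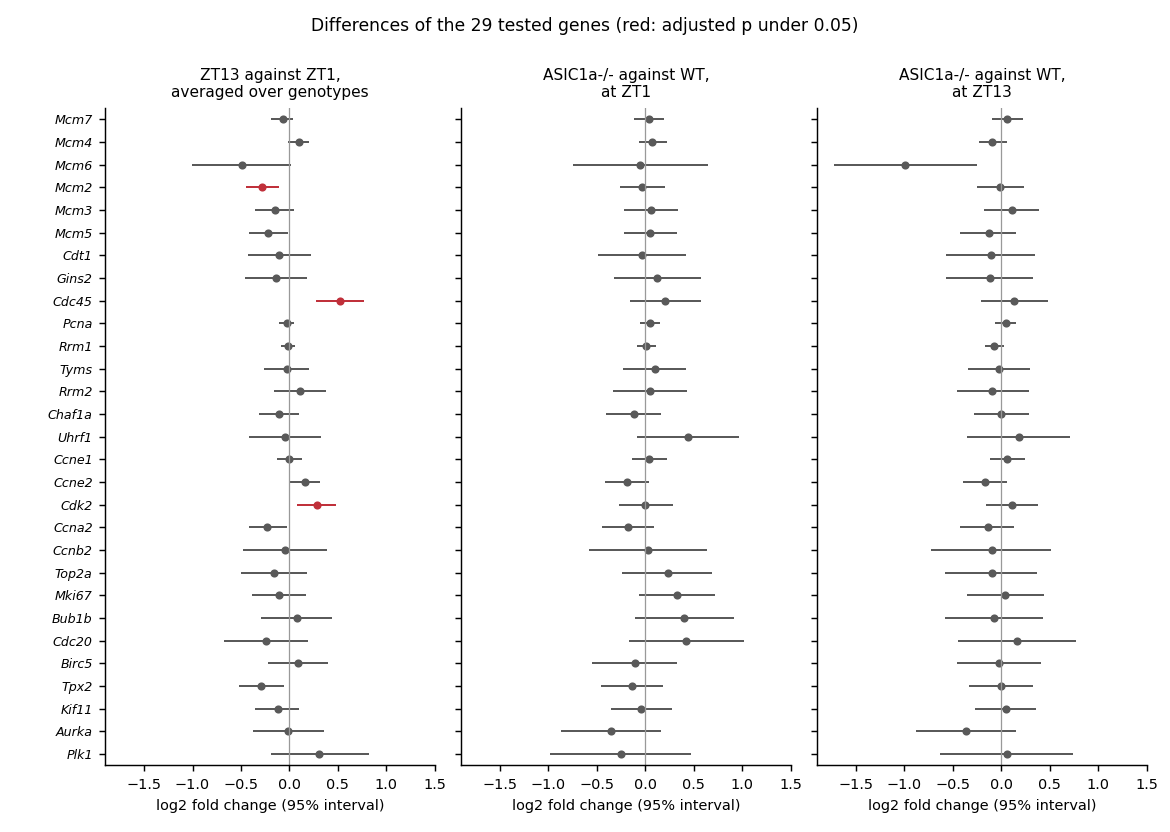
Log2 fold changes with 95% intervals of the 29 tested genes for ZT13 against ZT1, averaged over genotypes, and for ASIC1a-/- against WT at ZT1 and at ZT13. *Cdc45* (0.52), *Cdk2* (0.28) and *Mcm2* (-0.28) are red in the first panel, and no gene is red in the panels of genotype.

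The second question was whether the genes differed between early day and early night. Averaged over genotypes, 3 of the 29 genes passed, 2 higher (*Cdc45* and *Cdk2*) and 1 lower (*Mcm2*) at ZT13, whereas 26.4% of all tested genes passed (14.3% higher and 12.1% lower). In WT mice alone 1 of 29 passed (13.3% of all genes, 7.52% higher and 5.76% lower) and in ASIC1a-/- mice 0 of 29 (11.3%, with 6.72% higher and 4.62% lower). Without ASIC1a-/- ZT1 replicate 3, *Mcm4* joined *Cdc45* in WT and *Cdc45* passed in ASIC1a-/- mice, where *Cdc45* also passed without WT ZT13 replicate 3 and *Mcm6* without ASIC1a-/- ZT13 replicate 2. Without WT ZT1 replicate 1, *Mcm2* (adjusted p = 0.0252, edgeR) and not *Cdc45* passed in WT. Without ASIC1a-/- ZT1 replicate 1, 5 genes passed on average, with *Mcm5* and *Tpx2* lower beside the other 3. *Tpx2* also passed on average without WT ZT1 replicate 4, WT ZT13 replicate 1 or WT ZT13 replicate 2, and *Ccna2* without WT ZT1 replicate 2 or ASIC1a-/- ZT13 replicate 3. At an unadjusted p under 0.05 the counts were 8 of 29 on average (37.9% of all genes), 4 in WT (27.1%) and 5 in ASIC1a-/- mice (26.3%). The median log2 fold change on average was -0.05, with 9 genes above 0 and 20 below, and was -0.00492 over all genes.

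*Cdc45*, which joins the MCM ring to form the active helicase, was higher at ZT13. It had 1.26, 1.18, 1.35 and 1.14 CPM in WT at ZT1 and 1.77, 1.62, 2.30 and 1.56 at ZT13. In ASIC1a-/- mice it had 1.51, 1.37, 1.75 and 1.03 CPM at ZT1 and 1.85, 2.12, 1.95 and 2.02 at ZT13. The times did not overlap within either genotype. The log2 fold change was 0.55 ± 0.17 in WT (adjusted p = 0.0342), 0.49 ± 0.16 in ASIC1a-/- mice (adjusted p = 0.0610) and 0.52 ± 0.12 on average (adjusted p = 0.00299, edgeR). In WT mice alone the call rested on single libraries: without WT ZT13 replicate 3 the log2 fold change was 0.42 (adjusted p = 0.126), and without WT ZT1 replicate 1, 2 or 4 or WT ZT13 replicate 1 the adjusted p was 0.0586, 0.0764, 0.0895 and 0.0579. On average it passed under all 28 alternatives, with a log2 fold change of 0.38 to 0.58, and was 0.42 (adjusted p = 0.0231) without the 3 marker-high libraries. In WT mice it was 0.52 (adjusted p = 0.0722) without them, and it passed there under 21 of 29 alternatives.

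*Cdk2*, the kinase partner of cyclins E and A, had 2.26, 2.31, 2.78 and 2.31 CPM in WT at ZT1 and 2.89, 2.61, 3.01 and 2.81 at ZT13. In ASIC1a-/- mice it had 2.52, 2.10, 2.42 and 2.65 CPM at ZT1 and 2.70, 3.31, 3.58 and 2.61 at ZT13. WT replicate 3 at ZT1 and ASIC1a-/- replicate 4 at ZT13 made the times overlap. On average the log2 fold change was 0.28 ± 0.09 (adjusted p = 0.0261, edgeR). The call was lost without ASIC1a-/- ZT1 replicate 2 (adjusted p = 0.0546), WT ZT13 replicate 3 (0.0533), ASIC1a-/- ZT13 replicate 2 (0.0529) or replicate 3 (0.0656), without the 3 marker-high libraries (0.0809) or the 2 libraries low in *Mcm6* (0.0519), without the filter on low counts (0.0632), and with limma on log2(TPM + 1) and log2(TPM + 0.1) (0.0626 and 0.0662).

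*Mcm2*, a helicase subunit, was lower at ZT13. It had 3.91, 4.95, 5.37 and 4.99 CPM in WT at ZT1 and 3.92, 3.89, 3.77 and 4.17 at ZT13. In ASIC1a-/- mice it had 4.34, 4.57, 4.54 and 5.39 CPM at ZT1 and 4.47, 3.56, 3.72 and 3.91 at ZT13. Replicate 1 of WT at ZT1 and of ASIC1a-/- mice at ZT13 made the times overlap. The log2 fold change on average was -0.28 ± 0.08 (adjusted p = 0.0117, edgeR), and it was -0.21 (adjusted p = 0.0811) without the 3 marker-high libraries. With limma the adjusted p was 0.0544 on log2(TPM + 1) and 0.0586 on log2(TPM + 0.1).

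**Figure D4:**
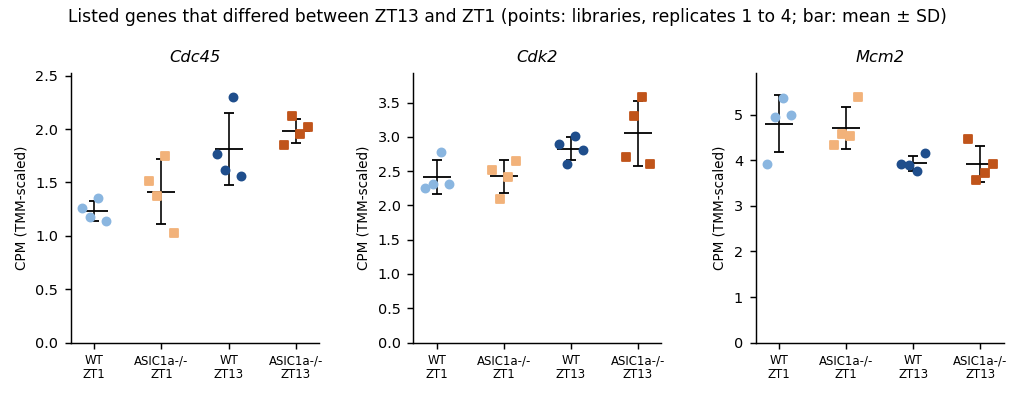
CPM of *Cdc45*, *Cdk2* and *Mcm2* in each library by group, with mean ± SD. *Cdc45* had 1.03 to 1.75 CPM at ZT1 and 1.56 to 2.30 at ZT13, and *Mcm2* had 3.91 to 5.39 CPM at ZT1 and 3.56 to 4.47 at ZT13.

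Of the 6 helicase subunits, 5 had a log2 fold change with time below 0 on average and 1, *Mcm4*, above 0 (median -0.18), and of these *Mcm2* passed. *Mcm4* stood at 0.10 ± 0.05 on average (adjusted p = 0.130, edgeR). It had 14.8, 14.9, 15.2 and 14.9 CPM in WT at ZT1 and 16.4, 17.1, 17.8 and 16.1 at ZT13, without overlap. Its log2 fold change in WT was 0.18 ± 0.06 (adjusted p = 0.0797, edgeR), and in ASIC1a-/- mice it had 16.5, 17.3, 13.7 and 15.4 CPM at ZT1 and 14.7, 15.6, 17.4 and 15.8 at ZT13. *Mcm5* differed by -0.22 ± 0.09 on average (adjusted p = 0.0826). *Mcm6* differed by -0.96 ± 0.35 in ASIC1a-/- mice (adjusted p = 0.0825, edgeR), with 2 low libraries at ZT13 (1.67 and 1.91 CPM) and 1 high library at ZT1 (11.3 CPM). Groups did not overlap for 2 of the 29 genes in WT (18.3% of all genes) and 2 in ASIC1a-/- mice (15.7%).

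Of the mitotic genes, *Tpx2* came nearest to the threshold, with -0.29 ± 0.11 on average (adjusted p = 0.0519, edgeR), followed by *Ccna2*, the S and G2 cyclin, with -0.23 ± 0.09 (adjusted p = 0.0663). Markers of the cell classes that can divide did not all move one way with time. The summed level of the 5 microglia markers was 145 to 153 CPM at ZT1 and 134 to 144 at ZT13 in WT, and 152 to 163 and 141 to 146 in ASIC1a-/- mice. Among them *Cx3cr1* had a mean of 43.2 ± 2.19 CPM at ZT1 and 35.9 ± 1.36 at ZT13 and *P2ry12* 23.0 ± 1.37 and 23.2 ± 1.25 (SD, n = 8). The 6 markers of oligodendrocyte precursors were 241 to 252 and 233 to 242 CPM in WT and 251 to 263 and 236 to 259 in ASIC1a-/- mice. The 4 markers of endothelium were 97.0 to 107 and 91.8 to 96.6 CPM in WT and 97.7 to 116 and 98.9 to 115 in ASIC1a-/- mice. The 5 of tanycytes and ependyma were 55.4 to 61.2 and 54.7 to 68.4 CPM in WT and 50.3 to 64.7 and 57.7 to 68.4 in ASIC1a-/- mice, and the 4 of neuroblasts 49.8 to 54.9 and 52.1 to 58.5 CPM in WT and 46.2 to 49.2 and 53.2 to 56.8 in ASIC1a-/- mice. As sums, microglia markers were thus lower at ZT13 without overlap in both genotypes, although the mean of *P2ry12* was not. Without overlap, the sum for endothelium was lower at ZT13 in WT and that for neuroblasts higher in ASIC1a-/- mice. Between genotypes, summed neuroblast markers were lower in ASIC1a-/- mice at ZT1 and summed endothelial markers higher in them at ZT13, each without overlap. In the other lists named here the genotypes overlapped at both times. The part of these differences in the results was not tested.

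The checkpoint gene *Bub1b* also varied among single libraries. It had 1.40, 3.99, 3.35 and 2.94 CPM in WT at ZT1 and 4.00, 3.16, 4.81 and 3.43 in ASIC1a-/- mice. At ZT13 it had 3.49, 3.04, 3.77 and 4.20 CPM in WT and 3.73, 3.22, 4.43 and 2.36 in ASIC1a-/- mice. WT ZT1 replicate 1 was the lowest, with 50 counts, and was among the 3 libraries high in *Mcm6*.

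**Figure D5:**
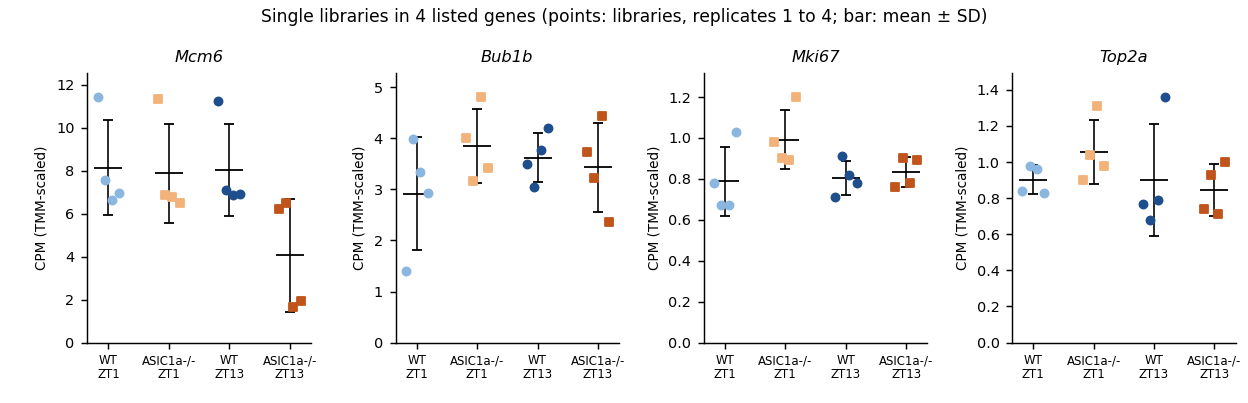
CPM of *Mcm6*, *Bub1b*, *Mki67* and *Top2a* in each library by group, with mean ± SD. *Mcm6* lies between 11.3 and 11.4 CPM in 3 libraries and at 1.67 and 1.91 CPM in 2, and *Mki67* lies between 0.67 and 1.2 CPM.

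Across the 16 libraries, *Mki67* was set against 12 genes, on log2 CPM centred on the group means. With *Pcna* it had Pearson's r = 0.58 (permutation p = 0.00605, adjusted p = 0.0726) and Spearman's rho = 0.70 (permutation p = 0.00244, adjusted p = 0.0293), so that only rho passed. When the 2 libraries most distant from the *Mki67* median were left out (WT ZT1 replicate 2 and ASIC1a-/- ZT1 replicate 4), r was 0.58, but the adjusted p of rho rose to 0.204. The relation with *Top2a* had r = -0.21 (adjusted p = 0.822) and rho = -0.18 (adjusted p = 0.863), and with *Cdk1* r = 0.07 and rho = -0.10, by permutation. The other relations, with the marker *Cldn5* of endothelium the strongest (r = 0.54, permutation p = 0.027, adjusted p = 0.162), did not pass. The points share library and scaling, and counts of 24 to 43 reads for *Mki67* limit the precision.

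The neighbouring genes of the same pathways were counted for context, on average over genotypes. Of 39 tested genes of other replication factors, 3 were higher at ZT13 and 2 lower. The higher genes were *Orc2*, an origin recognition subunit (0.17 ± 0.03), *Lig1*, the ligase that joins Okazaki fragments (0.17 ± 0.04), and *Orc6* (0.15 ± 0.04). The lower genes, named after their values were seen, were *Pold1*, the catalytic subunit of polymerase delta (-0.20 ± 0.07), and *Rfc3*, a clamp loader subunit (-0.19 ± 0.06). Of 29 tested genes of mitosis and cytokinesis, 2 were higher and 3 lower, among them the condensin subunit *Ncapd2* (0.26 ± 0.03), *Pttg1*, securin (-0.17 ± 0.04), and *Hmgb2* (-0.48 ± 0.15). The other two, also named after their values were seen, were *Cks1b*, which binds cyclin-dependent kinases (0.38 ± 0.13), and *Stmn1*, which destabilizes microtubules (-0.09 ± 0.03).

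Of 19 tested E2F, RB and DREAM regulators, 7 were higher and 1 lower. *Lin54*, the MuvB subunit that binds the CHR, rose from 8.90 ± 0.63 to 11.3 ± 0.78 CPM (SD, n = 8), a log2 fold change of 0.34 ± 0.05 (adjusted p = 1.6e-04, edgeR). *Rb1*, which restrains E2F factors, fell from 41.9 to 36.5 CPM (-0.20 ± 0.04), and *E2f3* rose (0.15 ± 0.03). The other higher genes, named after their values were seen, were *E2f4*, *E2f6*, *Tfdp2*, *Lin9* and *Lin52*. Of 19 tested cyclin D, kinase and inhibitor genes, 3 were higher and 1 lower, with *Ccnd1*, cyclin D1, at -0.27 ± 0.03, *Mdm2*, the ubiquitin ligase of p53, at 0.22 ± 0.03, and *Ccnd2* and *Trp53* at 0.13 ± 0.03 each. The shares that passed were 12.8%, 17.2%, 42.1% and 21.1% in the 4 lists, beside 26.4% of all genes.

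Between genotypes, 1 of the 106 tested genes of the 4 lists passed at ZT13 (0.943%, beside 0.101% of all genes), and none at ZT1, averaged over both times or in the interaction. *Racgap1*, a regulator of cytokinesis, had 16.3, 15.9, 17.3 and 18.4 CPM in WT at ZT13 and 14.6, 14.0, 13.2 and 13.7 in ASIC1a-/- mice. It was lower by a log2 fold change of -0.29 ± 0.05 (adjusted p = 0.0323, edgeR) and passed under 17 of 29 alternatives. With a test that it does not name and a p cutoff other than the one used here, the paper lists *Krt90*, *Prl* and *Gm49980* as lower at ZT13, and not *Racgap1*. The position of *Racgap1* relative to the deleted *Asic1* gene was not considered here. Whether loss of the channel underlies the difference was not tested. The call was lost without WT ZT13 replicate 3 or 4 or ASIC1a-/- ZT13 replicate 2, 3 or 4 (adjusted p 0.145, 0.125, 0.0844, 0.168 and 0.132), and without the 3 marker-high libraries (0.125) or the 2 libraries low in *Mcm6* (0.818). It was also lost when only the 8 libraries compared were fitted (0.134), with scaling by library size only (0.0541), with the replicate block (0.0682), and with limma on log2(TPM + 1) and log2(TPM + 0.1) (0.887 and 0.891). At ZT1 it differed by -0.11 ± 0.05 (adjusted p = 0.680), and the interaction had an adjusted p of 1.00.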

How the data were processed

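Per the labels and methods, reads were trimmed with cutadapt 1.8, aligned with STAR 2.5.3a and quantified with RSEM 1.2.31. The deposited expected counts (estimated counts, not normalized) and the TPM values, which the authors scaled by length and library total, were used. The submitters' processing notes name GRCm38 and mm9. Positions are those of GENCODE vM21 (GRCm38).

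Rounded counts were scaled by TMM and fitted in edgeR 4.0.16 under R 4.3.3 (quasi-likelihood test, 4 group means, 15808 genes over 1 CPM in at least 1 library) in 7 comparisons, with Benjamini-Hochberg adjustment over all tested genes. The fit was tried on simulated counts only for time averaged over genotypes, with the same dispersion for every gene. Genotype comparisons and single outlying libraries were not simulated. Standard errors come from the fold change and F statistic. Members and lists were chosen with earlier results of these data known. Named were genes called, genes at an unadjusted p under 0.05 with separate groups, the highest gene of each class, and up to 3 per pathway list. RSEM's posterior SD of the count was 0 in all libraries for 32 of the 36 genes. Permutations were 100000, within groups and two-sided. Precision rests mainly on 4 mice a group. Alternatives included DESeq2 1.42.0, limma 3.58.1, other filters, scalings and pseudocounts, and each library left out. Python 3.11.15 and matplotlib 3.10.9 were used.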

Additional observations from a re-analysis of the deposited data

Results flagged for a closer look

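In 6 of 116 gene and group pairs (5.17%) 1 library stood apart from the other 3 of its group by Dixon's criterion, beside 5.43% over all genes tested, and chance flags about 1 group in 20. *Mcm6* was high in ASIC1a-/- ZT1 replicate 1 (11.3 CPM, others 6.48 to 6.86) and in WT ZT13 replicate 1 (11.3 CPM, others 6.86 to 7.08). *Uhrf1*, a factor that keeps DNA methylation through replication, was low in ASIC1a-/- ZT1 replicate 1 (0.727 CPM, others 1.04 to 1.09). *Ccne1* was low in WT ZT13 replicate 1 (8.32 CPM, others 9.07 to 9.21). *Cdk2* was high in WT ZT1 replicate 3 (2.78 CPM, others 2.26 to 2.31), which lies against its higher level at ZT13. *Plk1*, a kinase of mitotic entry, was low in ASIC1a-/- ZT13 replicate 4 (0.277 CPM, others 0.895 to 1.02).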

How the results depend on the processing

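The counts of genes called between genotypes and in the interaction stayed at 0 under every alternative run. In WT mice the count with time was 0 without the filter on low counts, without the 3 marker-high libraries and without the 2 libraries low in *Mcm6*, 2 in a fit of only the 8 libraries compared, and 0 to 2 with 1 library left out. In ASIC1a-/- mice it was 1 without the filter, with log2(TPM + 1), with log2(TPM + 0.1) and without the marker-high libraries, 2 with limma-voom and with the replicate block, and 0 to 1 with 1 library left out. On average it ran from 1 to 4 over 12 alternatives, with 1 for either TPM pseudocount and without the marker-high libraries, and was 2 to 5 with 1 library left out. The cause was not tested. Omission of the marker-high and of the *Mcm6*-low libraries was chosen after seeing the data.

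Replicate numbers did not pair the libraries (r -0.32 to 0.22 over 24 pairs, and 5 of 16 libraries correlated best with their own number). With the number as a block, the call of *Racgap1* was lost (adjusted p = 0.0682), *Cdc45* and *Mcm6* passed in ASIC1a-/- mice (0.0464 and 0.0134) and *Mcm6* passed on average (0.0294), by edgeR.

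Of the relations of *Mki67*, 0 passed by r and 1 by rho. Without centring 1 passed by r (*Dcx*, -0.69) and 2 by rho (*Pcna* and *Dcx*, -0.65), and without the 2 farthest libraries 0 passed by rho. Signs reversed without centring for *Top2a* (r 0.07, rho 0.04), *Cdk1* (r -0.04), *Rax* (rho -0.08) and *Gh* (r 0.07, rho 0.10), and without the 2 libraries for *Mcm5* (r -0.02, rho -0.13), *Pdgfra* (r -0.40, rho -0.41), *Hbb-bs* (r -0.12, rho -0.16) and *Gh* (r 0.09, rho 0.03). Genes of a few reads are limited by counting.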

Other observations

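Without the filter on low counts the 7 genes left out could be fitted, and none passed with edgeR. In that fit *Ccnb1*, the cyclin of mitotic entry, differed by -0.89 ± 0.32 (SE, log2) between ZT13 and ZT1 on average (adjusted p = 0.0714), at 2 to 13 counts a library. *Ccnb1* passed on average when genes were kept by edgeR's filterByExpr. It had at most 6 counts at ZT13, so that filter kept it only through ZT1 libraries, where it was higher. That call is therefore no support for a difference with time. *Cdc6* differed by -0.94 ± 0.35 in WT mice (adjusted p = 0.124), where WT ZT1 replicates 2 and 3 had 0.82 and 0.65 CPM and the other 6 WT libraries 0.22 to 0.37.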
